A study of Mus musculus with 34 samples.

Results

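The genes described here encode subunits of the Polycomb repressive complexes and were chosen by symbol, as 10 of the 23366 gene symbols in the deposited RNA-seq table. They were Ezh1, Ezh2, Eed and Suz12 of the core of Polycomb repressive complex 2 (PRC2), the PRC2 accessory genes Jarid2 and Mtf2, and Rnf2, Ring1, Cbx7 and Bmi1 of Polycomb repressive complex 1 (PRC1). The rule itself uses no expression value, although the list was drawn up with earlier results of these data known. All 10 were found and passed the filter on low values.

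PRC2 methylates histone H3 to give H3K27me3, and PRC1 places ubiquitin on histone H2A. CBX proteins of PRC1 bind H3K27me3, and the accessory subunits of PRC2 help to bring it to CpG-rich DNA. In embryonic stem cells both complexes sit at silent developmental genes, such as those for lineage transcription factors and the Hox clusters, which they hold in a repressed state.

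The study asked whether Royalactin, a protein of royal jelly, could maintain mouse embryonic stem cells (mESCs) without leukemia inhibitory factor (LIF), the cytokine that normally sustains them in serum. J1, a single mESC line, was grown on gelatin in serum medium without LIF (serum/-LIF, 2 libraries) or without LIF and with purified Royalactin at 0.5 mg/ml (serum/-LIF + Royalactin, 2 libraries). The labels give passage 40 for all 4 libraries, whereas the study's text gives an earlier passage, and the labels do not tie the libraries to separate cultures. The p-values therefore rest only on spread between these libraries, which may be technical. Each gene's spread was largely drawn from the trend across all tested genes. Cells grown with LIF were not used here.

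The RNA was depleted of ribosomal RNA, and 14737796 to 17597818 reads fell on genes per library. The 45S ribosomal precursor Rn45s took 9.08% to 46.6% of them, more in replicate 1 than in replicate 2 of each condition, which left 7878527 to 15999458 reads on other genes. All values below are read counts divided by the library's size factor (normalized counts). Fold changes compare serum/-LIF + Royalactin with serum/-LIF on the log2(normalized count + 1) scale. The added 1 makes low genes appear to change less. For such genes a single very low library can also make the fitted change larger than the change of the means. Fold changes were tested with limma over 12993 genes, with Benjamini-Hochberg adjustment.

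Of the stem cell markers, 10 of 10 were expressed in all 4 libraries, with summed normalized counts of 32183 and 36975 in serum/-LIF and 39662 and 47009 with Royalactin. Sox2, Zfp42, Esrrb and Klf4 rose with Royalactin (limma adjusted p = 0.0368, 0.00371, 0.00273 and 0.00787), and the median log2 fold change of the 10 markers was 0.89. The mean log2 value was higher for 8 markers and lower for 2, Tdgf1 and Lin28a. Both Royalactin libraries lay below both serum/-LIF libraries for these 2 (log2 fold change -0.45 and -0.19, limma adjusted p = 0.73 and 0.891). Fibroblast markers summed to 512 and 574 in serum/-LIF and to 339 and 199 with Royalactin, with Postn, Pdgfrb and Fap at 0 in all 4 libraries. None of the 5 tested fibroblast markers passed the adjusted threshold, though 3 had a lower value at an unadjusted p under 0.05. Primitive endoderm markers summed to 3704 and 1980.1 against 2492 and 2098, and the 15 proliferation genes to 63911 and 68903 against 71369 and 74026. Of the 6 tested endoderm markers and the 15 proliferation genes, 0 passed the adjusted threshold, with median log2 fold changes of 0.34 and 0.25. At an unadjusted p under 0.05 there was 1 in each list, lower with Royalactin among the endoderm markers and higher among the proliferation genes. The endoderm markers had no common direction, with 3 higher and 3 lower in mean log2 value. In bulk RNA, a smaller share of cells of one type and less RNA per cell cannot be told apart, and the part of these differences in the values of the Polycomb genes was not tested.

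The accessory genes of PRC2 had the highest log2 fold changes among the 10 genes, while the core genes and PRC1 genes differed little against their spread. No gene of the 10 passed an adjusted p of 0.05 in limma, nor did any in edgeR run on the recovered reads, against 0.493% of all tested genes in limma. At an unadjusted p under 0.05 there were 2 genes, Jarid2 and Mtf2, both higher with Royalactin, where 9.34% of all tested genes passed in either direction. Jarid2 also met the limits that the study used, an unadjusted p of 0.05 and a fold change of 2, as did 7.13% of tested genes. The mean log2 value was higher with Royalactin for 8 genes and lower for Rnf2 and Bmi1, and the median log2 fold change of the 10 was 0.40 beside -0.01 for all tested genes. In 6 genes both Royalactin libraries lay above both serum/-LIF libraries, and in 0 genes both lay below, against 19.7% and 18.9% of all tested genes.

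**Figure D1:**
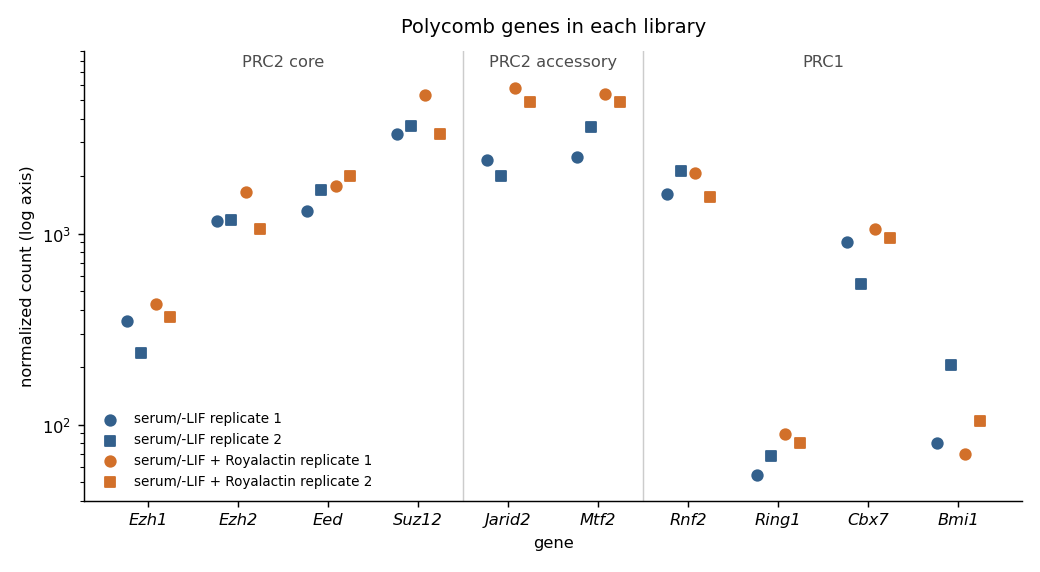
Normalized count (log axis) of each of the 10 Polycomb genes in the 2 serum/-LIF libraries (blue) and the 2 serum/-LIF + Royalactin libraries (orange), with circles for replicate 1 and squares for replicate 2. Jarid2 shows the widest gap between conditions, from 2007 and 2431 to 4882 and 5782, and Bmi1 the widest gap within one, 80.2 and 205 in serum/-LIF.

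Jarid2 encodes a DNA-binding cofactor of PRC2 that helps to recruit the complex and to tune its activity (chromosome 13, 44824843 to 45017012 of mm9). It had 2431 and 2007 normalized counts in serum/-LIF replicates 1 and 2. With Royalactin it had 5782 and 4882 in replicates 1 and 2, the order used for every gene that follows. Both Royalactin libraries stood well above both serum/-LIF libraries, and the gap between conditions was far wider than the gap within either. The means were 2219 ± 300 and 5332 ± 636 (SD, n = 2), a 2.4-fold difference of means. The log2 fold change was 1.27 (standard error 0.29, 95% interval 0.64 to 1.90), with an unadjusted limma p of 7.56e-04 that ranked 97 among the tested genes and an adjusted p of 0.101. In edgeR the unadjusted p was 0.00118 and the adjusted p 0.122.

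Mtf2 encodes a Polycomb-like protein that binds unmethylated CpG-rich DNA and brings PRC2 to it (chromosome 5, 108494693 to 108538023). It had 2502 and 3615 normalized counts in serum/-LIF and 5368 and 4871 with Royalactin. The conditions did not overlap, but the serum/-LIF libraries lay far apart, with replicate 2 nearer to the Royalactin libraries. The means were 3059 ± 787 and 5119 ± 352 (SD, n = 2), a 1.67-fold difference. The log2 fold change was 0.77 (standard error 0.30, 95% interval 0.11 to 1.42), with an unadjusted limma p of 0.0254 and an adjusted p of 0.428 (edgeR 0.0324 and 0.468). Its exons overlap Tmed5 on the opposite strand and 4.32% of its exon tiles have a near-identical copy elsewhere, so some reads may belong to other loci.

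The calls on these 2 genes changed with a correction for GC content and exon length, after which both passed (limma adjusted p = 0.00456 for Jarid2 and 0.0454 for Mtf2). With that correction 277 of 12771 tested genes passed, against 64 of 12993 without it. In limma without its variance trend neither gene passed (adjusted p = 0.44 for Jarid2 and 0.664 for Mtf2), nor did any other. A fit without any one library leaves 1 sample in its condition, so only the effect size is given here. The log2 fold change then stayed between 1.13 and 1.40 for Jarid2 and between 0.50 and 1.03 for Mtf2.

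**Figure D2:**
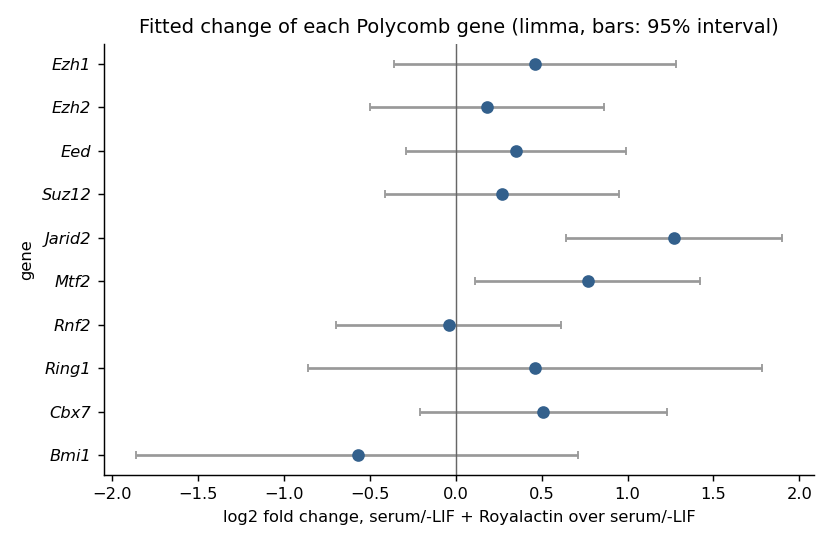
Fitted log2 fold change of each gene, serum/-LIF + Royalactin over serum/-LIF (points), with the 95% interval from limma (bars). The intervals of Jarid2 (0.64 to 1.90) and Mtf2 (0.11 to 1.42) lie above 0 and those of the other genes span 0.

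The promoters of both genes are shown beside that of Rnf2, whose mean was nearly equal in both conditions, to show what kind of start region each has. The sequences are from RefSeq (GRCm38.p6), 300 bases around an annotated start in the direction of the gene, and were placed on mm9 by an exact match. CpG dinucleotides are in capitals. Jarid2 is the upstream start of 2 listed ones, chr13:44825893-44826192 on the plus strand. Mtf2 is likewise the upstream start of 2, chr5:108494443-108494742 on the plus strand, and Rnf2 is chr1:153348072-153348371 on the minus strand.
Jarid2: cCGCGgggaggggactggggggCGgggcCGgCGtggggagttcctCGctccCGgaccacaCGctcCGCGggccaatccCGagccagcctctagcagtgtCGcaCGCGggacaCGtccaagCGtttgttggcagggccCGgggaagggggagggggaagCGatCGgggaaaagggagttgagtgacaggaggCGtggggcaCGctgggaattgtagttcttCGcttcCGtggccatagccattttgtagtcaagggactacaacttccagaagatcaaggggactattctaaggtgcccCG
Mtf2: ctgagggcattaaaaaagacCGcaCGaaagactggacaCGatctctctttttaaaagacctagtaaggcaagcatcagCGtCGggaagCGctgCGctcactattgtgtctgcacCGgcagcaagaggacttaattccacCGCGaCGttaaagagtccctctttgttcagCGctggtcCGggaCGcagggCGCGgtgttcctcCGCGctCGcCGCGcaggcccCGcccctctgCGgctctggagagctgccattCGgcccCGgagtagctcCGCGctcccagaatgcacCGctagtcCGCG
Rnf2: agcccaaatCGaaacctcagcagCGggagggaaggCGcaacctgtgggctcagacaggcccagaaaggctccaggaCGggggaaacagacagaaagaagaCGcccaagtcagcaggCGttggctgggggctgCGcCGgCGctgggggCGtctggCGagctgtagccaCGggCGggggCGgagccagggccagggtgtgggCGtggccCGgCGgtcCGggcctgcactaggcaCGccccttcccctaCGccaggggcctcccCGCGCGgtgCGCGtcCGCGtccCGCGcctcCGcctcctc

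The Jarid2, Mtf2 and Rnf2 windows hold 24, 30 and 30 CpGs, and the median of 32851 RefSeq mouse promoters of the same length is 7. Over the 12 promoters listed for the 10 genes, 11 hold 17 to 41 CpGs and the second Mtf2 start holds 2. A CpG-rich start was thus common to the genes with the largest and the smallest fold changes. On either strand, the KLF/SP motif GGGCGGGG occurs in 5 of the 12, those of Suz12, Jarid2, Mtf2, Rnf2 and Bmi1, and in 17.6% of all promoters. The E2F motif TTTCCCGC occurs in 1, that of Suz12 (1.07% of all). Both motifs hold a CpG, and neither share was matched for the CpG content of the windows. The STAT motif TTCCNGGAA, the Esrrb motif TCAAGGTCA and the octamer ATGCAAAT occur in none of the 12 and in 1.15%, 0.423% and 1.74% of all promoters.

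The PRC2 core genes had slightly higher means with Royalactin, none past the test. Ezh2, the main methyltransferase of PRC2 in dividing cells (chromosome 6, 47480273 to 47545340), had 1165 and 1172 normalized counts in serum/-LIF and 1649.6 and 1057 with Royalactin. The 2 Royalactin libraries lay on either side of both serum/-LIF libraries. Its log2 fold change was 0.18 (standard error 0.32, 95% interval -0.50 to 0.86, limma adjusted p = 0.905). Ezh1, the alternative methyltransferase (chromosome 11, 101052429 to 101087777), was lower, with 348 and 238 normalized counts in serum/-LIF and 426 and 368 with Royalactin. Its conditions did not overlap, but the gap between them was smaller than the gap within serum/-LIF, and the log2 fold change was 0.46 (standard error 0.38, limma adjusted p = 0.766). Without serum/-LIF replicate 1 it was 0.73 and without replicate 2 it was 0.19.

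Eed, the subunit that reads H3K27me3 and stimulates the enzyme (chromosome 7, 97103166 to 97129493), had 1308 and 1684 normalized counts in serum/-LIF and 1781 and 2009 with Royalactin. Again the conditions did not overlap by a narrow margin. The log2 fold change was 0.35 (standard error 0.30, limma adjusted p = 0.773), and it was 0.17 without serum/-LIF replicate 1 and 0.53 without serum/-LIF replicate 2. Suz12, the scaffold that holds the core together (chromosome 11, 79806608 to 79847625), had 3309.9 and 3640.3 normalized counts in serum/-LIF and 5298 and 3312 with Royalactin. Only Royalactin replicate 1 was high, as for Ezh2, and replicate 2 lay between the serum/-LIF libraries. The log2 fold change was 0.27, with a standard error of 0.31 (limma adjusted p = 0.843). It turned to -0.07 without Royalactin replicate 1, and that of Ezh2 to -0.14. For Suz12, 7.64% of exon tiles have a near-identical copy elsewhere, and both Ezh2 and Suz12 overlap a noncoding gene on the opposite strand.

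The PRC1 genes gave no common direction. Rnf2, the E3 ubiquitin ligase RING1B (chromosome 1, 153316536 to 153347953), had 1610.1 and 2134 normalized counts in serum/-LIF and 2082 and 1554 with Royalactin. The libraries interleaved, and the log2 fold change was -0.04 (standard error 0.31, 95% interval -0.70 to 0.61, limma adjusted p = 0.978). It changed sign under another scaling and when a replicate 2 library was left out. Its paralog Ring1, for RING1A (chromosome 17, 34157737 to 34161625), had only 54.8 and 68.3 normalized counts in serum/-LIF and 89.5 and 79.8 with Royalactin. The conditions did not overlap, but these values rest on 41 to 116 reads per library, and the log2 fold change was 0.46 with a standard error of 0.61 (limma adjusted p = 0.868). Without serum/-LIF replicate 1 it was 0.30.

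Cbx7, the main CBX protein of PRC1 in mESCs (chromosome 15, 79746237 to 79801549), had 900.0 and 544 normalized counts in serum/-LIF and 1051 and 949 with Royalactin. Replicate 2 of serum/-LIF was low and the other libraries lay close together. The log2 fold change was 0.51 (standard error 0.33, limma adjusted p = 0.69), with 0.15 without that library and 0.87 without serum/-LIF replicate 1. Bmi1, also known as Pcgf4, a partner of the RING proteins (chromosome 2, 18598645 to 18608256), had 80.2 and 205 normalized counts in serum/-LIF and 70.4 and 105 with Royalactin. Its high value in serum/-LIF replicate 2 set the direction, since the log2 fold change was -0.57 with all libraries (standard error 0.60, limma adjusted p = 0.82) and 0.10 without that one. Near-identical copies exist for 40.6% of its exon tiles, so its count is uncertain.

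**Figure D3:**
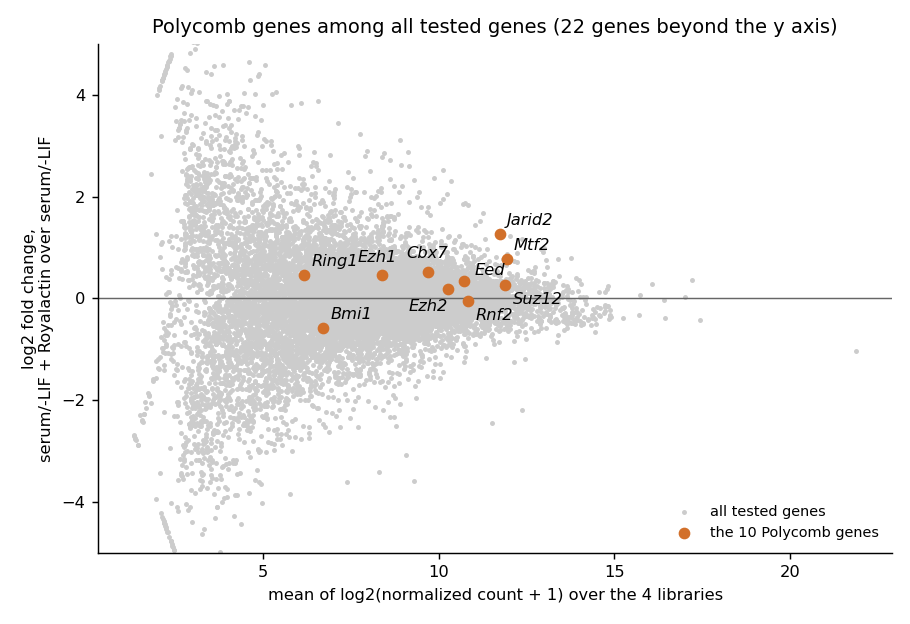
Fitted log2 fold change against the mean log2(normalized count + 1) over the 4 libraries for all tested genes (grey) and the 10 Polycomb genes (orange), with 22 genes beyond the y axis. Jarid2 and Mtf2 lie at the upper edge of the cloud at their expression level, while Ring1 and Bmi1 lie where the cloud is wide.

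Per kilobase of exon, the genes fell into tiers, and Jarid2 was the fifth in both conditions. In serum/-LIF, Suz12 (mean 703 normalized counts per kilobase), Eed (674), Rnf2 (618) and Mtf2 (581) were highest, and the ranges of neighbours in this order overlapped. A gap separated them from Jarid2 (228), Cbx7 (191) and Ezh2 (189), which overlapped or lay next to each other, and another gap from Ezh1 (39.4), Bmi1 (35.9) and Ring1 (19). With Royalactin, Mtf2 (973) was the highest in the mean, with a range that overlapped that of Suz12 (871), which in turn overlapped that of Eed (855). Jarid2 (549) then stood with Rnf2 (600.3), clear of Cbx7 (264) and Ezh2 (218). Ezh1 (53.4) was apart from both sides, and Ring1 (26.1) and Bmi1 (22.0) came last with overlapping ranges.

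Ratios within a library do not move with its scaling, and they compared related genes directly. With 2 against 2 libraries the smallest two-sided exact permutation p is 0.333, so no ratio could pass. Rnf2 exceeded Ring1 by 29.4-fold and 31.2-fold in serum/-LIF and by 23.3-fold and 19.5-fold with Royalactin, and the conditions did not overlap. Ezh2 exceeded Ezh1 by 3.35-fold and 4.92-fold against 3.87-fold and 2.87-fold, which overlapped. The Mtf2 to Jarid2 ratio was 1.03 and 1.80 in serum/-LIF and 0.928 and 0.998 with Royalactin, the lower of the former pair close to the latter. Bmi1 over Pcgf2, its closest relative, was 0.267 and 2.08 in serum/-LIF and 0.219 and 0.817 with Royalactin. Here the replicates differed far more than the conditions, and replicate 2 was the higher in both. Among the PCGF genes, which define the variants of PRC1, Pcgf6 took the largest share of the signal per kilobase in every library (36.7% and 41.3% against 48.1% and 47.5%), and Bmi1 took 2.57% to 9.82%. Near-identical copies exist for 78.6% of the exon tiles of Pcgf1, 40.6% of those of Bmi1 and 0% of those of Pcgf6. The order of these shares is therefore uncertain.

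**Figure D4:**
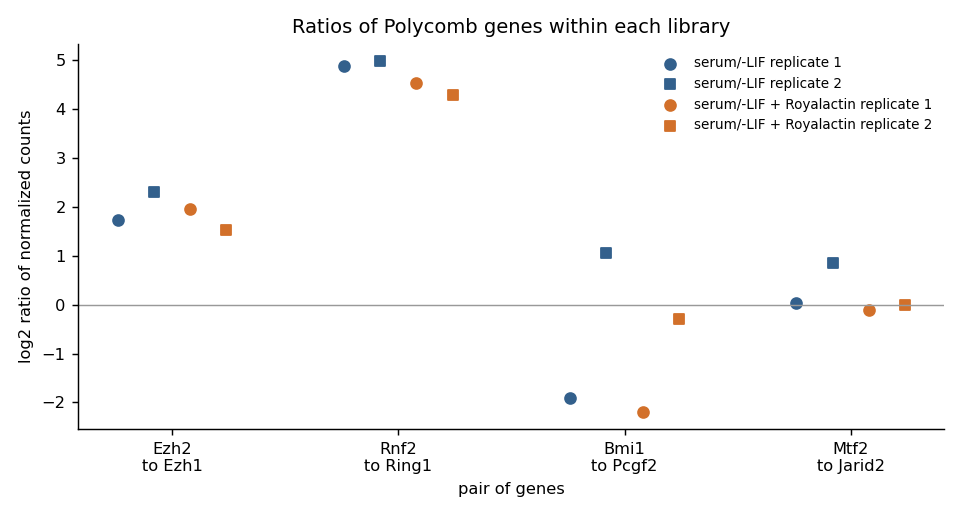
Log2 ratio of the normalized counts of 2 genes within each library, for 4 pairs, with serum/-LIF in blue and serum/-LIF + Royalactin in orange (circles replicate 1, squares replicate 2). The ratio of Rnf2 to Ring1 is lower in both Royalactin libraries (23.3 and 19.5 against 29.4 and 31.2), and that of Bmi1 to Pcgf2 splits by replicate rather than condition.

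The 42 other Polycomb genes, the remaining subunits of both complexes with the PR-DUB deubiquitinase and the H3K27 demethylases, were all tested and 0 passed the adjusted threshold in limma or edgeR. At an unadjusted p under 0.05 there were 2 higher and 2 lower with Royalactin, a share near the 9.34% of all tested genes. The conditions did not overlap in 13 higher and 5 lower genes, beside 19.7% and 18.9% of all tested genes. Their median log2 fold change was 0.25, and that of all 52 Polycomb genes 0.27. The 0.25 did not keep its direction, at -0.03 without Royalactin replicate 1 and -0.01 without serum/-LIF replicate 2, and was 0.38 and 0.39 without either of the other libraries. Bcor, a corepressor of variant PRC1, had 560.3 and 390.2 normalized counts in serum/-LIF and 860 and 720.0 with Royalactin (log2 fold change 0.75, limma adjusted p = 0.517). Its relative Bcorl1 had 95 and 96.3 against 22.1 and 18.6 (log2 fold change -2.18, limma adjusted p = 0.337). Bcor and Bcorl1 thus differed in opposite directions, and neither passed the test. The other 2 genes were named after their values were seen. Epop, a PRC2 accessory gene, had 350.4 and 199.8 normalized counts in serum/-LIF and 554 and 639 with Royalactin (log2 fold change 1.17, limma adjusted p = 0.297), and Yaf2, a variant PRC1 gene, had 237 and 539 against 158 and 202 (limma adjusted p = 0.528).

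By complex, the PRC2 accessory genes again had the higher values. For the other 6 accessory genes the median log2 fold change was 0.65, from -0.26 for Lcorl to 1.76 for Phf1, which at 3.11 to 62.4 normalized counts was among the weakest. The remaining core genes Rbbp4 and Rbbp7, histone-binding proteins shared with other complexes, had log2 fold changes of 0.29 and -0.08. In PRC1 the lowest log2 fold change among the CBX genes was -0.34 for Cbx6. The PHC and SCM genes ranged from -0.58 for Scmh1 to 1.70 for Scml2, and the PCGF genes from -0.43 for Pcgf5 to 0.70 for Pcgf1. Pcgf1 shares 78.6% of its exon tiles with a near-identical copy. The PR-DUB genes ranged from -1.40 for Mbd6 to 0.57 for Asxl1, and the demethylase genes Kdm6a and Kdm6b had 0.00 and -0.89. Mbd6 and Kdm6b were low only in Royalactin replicate 2 (14.5 and 76.4 normalized counts), and their conditions overlapped. None of the fold changes in this paragraph passed the test.

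**Figure D5:**
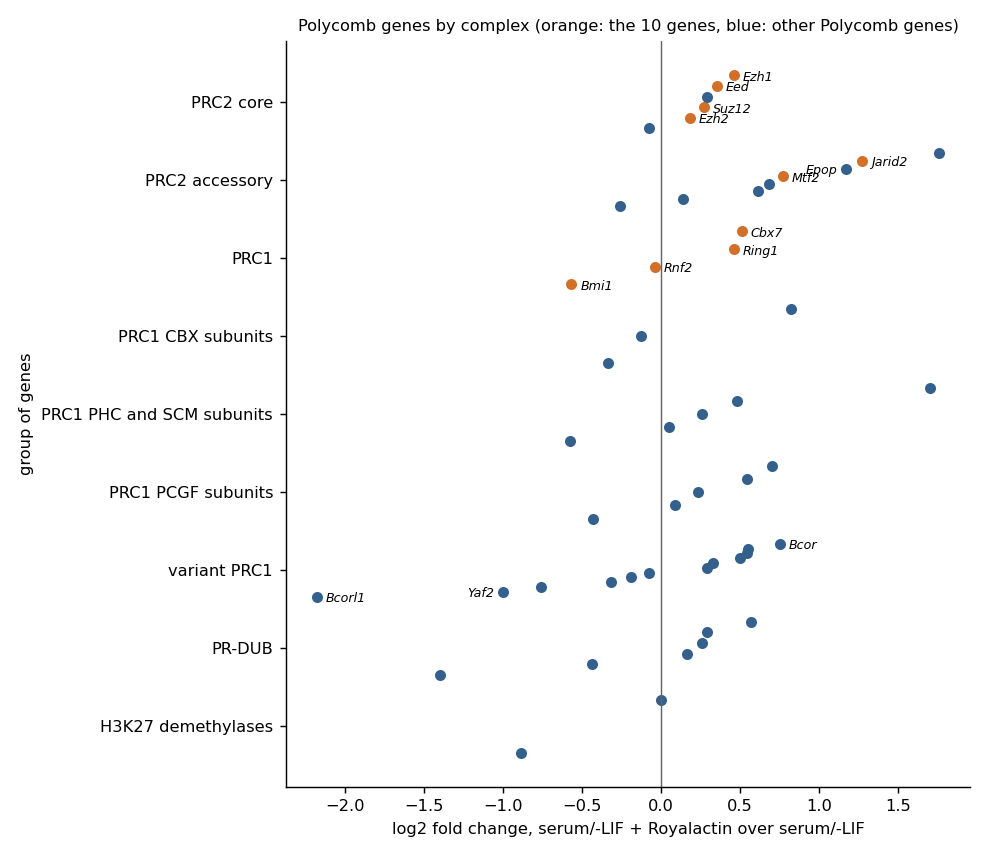
Fitted log2 fold change, serum/-LIF + Royalactin over serum/-LIF, of the 10 Polycomb genes (orange) and 41 other Polycomb genes (blue), by complex, with names for the 10 and for those at an unadjusted p under 0.05. The PRC2 accessory genes lie mostly to the right of 0, from -0.26 to 1.76, as do the PRC2 core genes, from -0.08 to 0.46. The demethylase genes lie at 0.00 and -0.89, and the remaining groups lie on both sides.

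Known Polycomb targets in mESCs were weakly expressed. Of 44 listed, 17 reached the filter, 7 had no read in any library, and 0 passed the adjusted threshold in limma or edgeR, with a median log2 fold change of -0.41 over the 17. With one library left out this median ran from -0.69 without Royalactin replicate 1 to -0.09 without Royalactin replicate 2, and was -0.20 without serum/-LIF replicate 1. At an unadjusted p under 0.05 there were 0 higher and 2 lower of the 17, a share near the 9.34% of all tested genes. Msx1, a homeobox gene of mesoderm and neural crest, had 77.6 and 78.7 normalized counts in serum/-LIF and 9.05 and 22.7 with Royalactin (log2 fold change -2.36, limma adjusted p = 0.389). Hoxd13, a posterior Hox gene, had 37.4 and 75.6 against 0 and 8.95 (log2 fold change -4.10, limma adjusted p = 0.379).

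Both had the lowest log2 fold changes of their groups, and both were at low counts. Among the other targets, Gata4 had the highest value of the endoderm and mesoderm regulators (log2 fold change 1.55), Irx2 (1.42) and Sim1 (-0.37) had the highest and lowest fitted values of the neural regulators, and Cdkn2a (0.76) and Cdkn2b (-1.50) made up the INK4 locus. The value for Irx2 came from a single library at 0, since it had 32.1 and 0 normalized counts in serum/-LIF and 15.1 and 13.8 with Royalactin, and its mean was in fact lower with Royalactin (14.4 against 16). The median over all targets with any read was 0.19, so its sign depended on the filter. The summed pluripotency and fibroblast markers differed between the same libraries, as given above, and their part in the values of these targets was not tested.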

How the data were processed

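RNA-seq of J1 mESCs was analysed in 4 libraries. The authors used Tophat to align reads to mm9 and HTSeq-count to count them by gene. They deposited DESeq-normalized counts, a signal equal to reads divided by one size factor per library. The annotation and strand setting are not given in the sources used here. In each library 100% of values were whole multiples of one step (tolerance 0.01 read), which gave back the reads. Counting error limits genes of few reads, and zeros entered the fit with only the added count of 1.

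In R 4.3.3, limma 3.58.1 (variance trend, two-sided, Benjamini-Hochberg) was fitted to log2(normalized count + 1) for genes with a mean of at least 10. The spread of each gene had 2 residual degrees of freedom, and the trend across genes added 11.5. On simulated data with 200 changed genes, this fit found 11.8% of 2-fold and 62.1% of 4-fold or larger changes, and 4.47% of its calls were false. Each simulated gene took its spread from the trend alone, and no GC or replicate effect was added. These rates therefore need not hold for the data. Lengths, GC content and mm9 positions came from GENCODE, for 98.3% of tested genes. Exon tiles of 75 bases were mapped by minimap2 2.31-r1302 in search of near-identical copies. The 10 genes, gene lists and tests were chosen with earlier results of these data known. Named genes were the 10, those past the adjusted threshold, and the largest rise and fall in each subgroup of other Polycomb genes and targets. A few markers were also named after their values were seen. Alternatives were other pseudocounts, filters and scalings, no trend, a GC and length correction, a replicate block, each library left out and, chosen after seeing the data, edgeR 4.0.16 on the reads. A few results this rule would name are not reported here. ATAC-seq samples were not used here.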

Additional observations from a re-analysis of the deposited data

How the results depend on the processing

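Over all genes, 64 passed the adjusted threshold. This became 32 with a pseudocount of 0.1, 34 for all genes with a value above 0, 99 for genes with a mean of at least 50, 0 without the variance trend (1135 at an unadjusted p under 0.05), 277 with the GC and length correction, and 0 without any one library (428 to 2496 unadjusted). Genes past the study's limits numbered 427 to 1925 with one library left out. Of the 10 Polycomb genes 2 passed with the correction, Jarid2 and Mtf2, and 0 with each library left out, while 1 to 2 met the study's limits, 2 without serum/-LIF replicate 2. Of the other Polycomb genes 1, Epop, passed with the correction. The median log2 fold change of the 10 ranged from 0.25 to 0.55 with one library left out, that of the other Polycomb genes from -0.03 (without Royalactin replicate 1) to 0.39, and that of the targets from -0.69 to -0.09, with 0.19 over all genes with a value above 0. With one library left out, Ezh1 ranged from 0.19 to 0.73, Eed from 0.17 to 0.53, Cbx7 from 0.15 to 0.87, Ring1 from 0.30 to 0.62, Ezh2 from -0.14 to 0.50, Suz12 from -0.07 to 0.61 (both lowest without Royalactin replicate 1), Bmi1 from -1.25 to 0.10 (highest without serum/-LIF replicate 2) and Rnf2 from -0.25 to 0.17. Rnf2 turned positive under 5 alternatives (0.01 with scaling to the library total without Rn45s, 0.10 with the GC and length correction, with or without the replicate block, 0.16 without serum/-LIF replicate 2 and 0.17 without Royalactin replicate 2). The cause was not tested. A library left out leaves 1 sample in its condition, assumed to vary like the others.

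Replicate numbers gave 2 pairs whose deviations had a Pearson correlation of 0.0851 over the tested genes, and no label links the libraries of a pair. The Rn45s share and the Bmi1 to Pcgf2 ratio nevertheless differed between the replicate numbers in the same direction in both conditions. With the replicate block 391 genes passed, 806 with the block and the GC and length correction, and 298 in edgeR with the block, chosen after seeing the data. Jarid2 then passed (adjusted p = 4.40e-04, 4.27e-08 and 0.00462), as did Mtf2 with block and correction (3.82e-04), making 1, 2 and 1 of the 10, and 1 (Epop), 2 (Epop and Mga) and 0 of the other Polycomb genes. The limma block fits have 1 residual degree of freedom and take the spread of each gene from the trend across genes alone.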
